A study of Mus musculus with 6 samples.

Results

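The genes described here encode the nuclear subunits of the 5 complexes of oxidative phosphorylation. They were taken by gene symbol, as probe sets whose platform annotation holds 1 symbol beginning with Nduf and a subunit letter (a, b, c, s or v) followed by a digit, with Uqcr, with Cox (families 4 to 8) or with Atp5, together with Sdha to Sdhd and Cyc1. Pseudogenes named as such were left out, and assembly factors such as Ndufaf7 do not match. This gave 106 of 35557 probe sets, for 82 genes. A filter on low values, a log2 value above 3.78 in at least 3 of the 6 arrays, left 105 of these probe sets and 81 genes out of 15199 named genes kept. The gene below the filter was Cox7b2, a subunit isoform of complex IV, which stood at 3.51, 3.13 and 3.13 in the Hira-null arrays, against 3.18, 3.01 and 3.31 in the WT arrays. Where several probe sets named 1 gene, the one with the highest mean stands for it. Members without a probe set of a single symbol, such as Ndufb1, Ndufb4 and Cox7c, were not analysed here.

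The Hira-null cells were Cl34, a mouse embryonic stem (ES) cell clone of genotype Hira-/-. The WT cells were w9.5, the parental ES cell line. Each line was measured on 3 Affymetrix Mouse Gene 1.0 ST arrays labelled as biological replicates, and both lines were grown in serum-containing medium with ESGRO, a leukaemia inhibitory factor supplement. HIRA is a histone chaperone that places the histone variant H3.3 on DNA outside replication. The Hira-null line is 1 clone, so loss of Hira and any other difference between clone and parent cannot be told apart. Cells were harvested at varying confluence, and no label gives the confluence of an array. The labels do not say how the replicates were separated, so the p-values rest on the scatter among 3 arrays a line, some of which may be technical.

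Oxidative phosphorylation takes electrons from NADH at complex I and from succinate at complex II, passes them through complex III and cytochrome c to oxygen at complex IV, and uses the proton gradient built on the way to make ATP at complex V. All complexes except II combine subunits from the mitochondrial genome with a larger number from nuclear genes scattered over many chromosomes, so their supply depends on the coordinated expression of unlinked genes. Mouse ES cells respire but also rely strongly on glycolysis. The nuclear genes are known targets of the transcription factors NRF1, GABPA (of the ETS family) and YY1.

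Promoter sequence was the feature of these genes that the choice by symbol did not use. RefSeq promoter windows (GRCm38.p6, from 250 bases before to 50 after a start site) were found for 65 of the 81 genes, as 70 windows. They were searched on both strands for GCGCANGCG (NRF1), CCGGAAG (ETS) and AANATGGCG (YY1), and no stretch was masked between motifs. The NRF1 motif was in 20 of the 70 windows (28.6%), against 8.58% of the windows of all protein-coding genes. The ETS motif was in 17 windows (24.3%, against 11.6%) and the YY1 motif in 10 (14.3%, against 3.12%). At least 1 of the 3 was in 39 windows (55.7%, against 20.4%). By complex, YY1 matches were in 7 of 31 complex I genes and 3 of 15 complex V genes, and in none of the 11 complex IV genes with a window. Of the 5 windows from chromosomes 8 and 11, 1 held the NRF1 motif, 2 the ETS motif and none the YY1 motif, against 29.2%, 23.1% and 15.4% of the 65 windows of members elsewhere. All YY1 matches of members read on the strand of the gene. Most began after the start site, as in Ndufs4 at 35 bases. A match is a run of letters and does not show that a factor binds there.

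The 5 upstream stretches printed here come from the genes whose values stood lowest as groups, namely members on chromosomes 8 and 11 (Atp5h, Ndufb7 and Atp5g1) and complex II (Sdha and Sdhd), and show how unlike their promoters are. Capitals mark the motifs, and each sequence is printed 5′ to 3′ on the strand of its gene. Atp5h (chr11:115419936-115420075, minus strand) holds an NRF1 motif and, reversed, an ETS motif. Ndufb7 (chr8:83566618-83566757, plus strand) holds an ETS motif alone. Atp5g1 (chr11:96075632-96075771, minus strand) holds none of the 3. Sdha (chr13:74350241-74350380, minus strand) holds 3 NRF1 motifs, and Sdhd (chr9:50603850-50603989, minus strand) holds an NRF1 motif and a reversed ETS motif. Not printed are the windows of Ndufa13 and Uqcr10, which hold none of the 3. That of Sdhb, also not printed, holds an ETS motif after the start site.
Atp5h: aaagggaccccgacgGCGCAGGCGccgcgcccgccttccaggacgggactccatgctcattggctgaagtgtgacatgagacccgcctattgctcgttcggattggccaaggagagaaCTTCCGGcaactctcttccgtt
Ndufb7: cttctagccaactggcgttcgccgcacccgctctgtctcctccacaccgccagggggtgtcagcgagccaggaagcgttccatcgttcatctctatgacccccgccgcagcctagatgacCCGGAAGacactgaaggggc
Atp5g1: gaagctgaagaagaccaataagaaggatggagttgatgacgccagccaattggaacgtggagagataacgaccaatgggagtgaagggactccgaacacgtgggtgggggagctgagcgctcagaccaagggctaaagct
Sdha: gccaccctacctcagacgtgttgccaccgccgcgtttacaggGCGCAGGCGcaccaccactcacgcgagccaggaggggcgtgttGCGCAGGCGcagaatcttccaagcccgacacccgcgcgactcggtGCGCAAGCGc
Sdhd: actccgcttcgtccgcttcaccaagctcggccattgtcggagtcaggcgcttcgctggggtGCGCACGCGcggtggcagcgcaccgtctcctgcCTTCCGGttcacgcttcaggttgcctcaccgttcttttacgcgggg

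The arrays were compared on the deposited log2 values, whose array medians lay between 4.93 and 5.02. Principal component 1, with 41.7% of the variance, set Hira-null replicate 3 at -65.6 apart from the other arrays at -1.95 to 32. The 8 ES cell markers measured of 8, from Klf4 at 7.98 upwards, summed over their log2 values to 79.4 to 83.7 in Hira-null arrays and 81.1 to 82.7 in WT arrays. The probe set of Hira read 7.40, 7.05 and 6.81 in Hira-null arrays, against 7.49, 7.86 and 7.83 in WT arrays. The groups did not overlap, and the difference of -0.64 (SE 0.19) had a limma adjusted p of 0.352. The sources used here do not give the deleted part of the gene, so this probe set does not check the labels. Over the whole table limma called 1 of 25142 probe sets at an adjusted p under 0.05 (0.00398%), which was no member of this group of genes. That count was 41 without Hira-null replicate 2 and 0 without any 1 of the other arrays.

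The median subunit gene stood close to its WT level in Hira-null cells, while the subunit genes on chromosomes 8 and 11 stood lower. Hira-null minus WT, the median log2 difference over the 81 genes was -0.04, with 47 genes lower and 34 higher. With 1 array left out it ran from -0.0983 without WT replicate 1 to 0.0150 without WT replicate 2. Over all 15199 genes the median was -0.01. No subunit passed the adjusted threshold, with a smallest adjusted p of 0.25. At an unadjusted p under 0.05 there were 6 lower subunit genes and 0 higher ones, where 6.29% of all genes were lower and 4.17% higher by the same rule. Of the 6, 4 lay on chromosomes 8 and 11. That left 2 of the 74 members on other chromosomes (2.7%), against 2.73% of all genes there. All 3 Hira-null arrays lay below all 3 WT arrays for 11 of the 81 genes (13.6%), against 9.55% of all genes, and above them for 3 (3.7%), against 7.8% of all genes. Of the 81 differences, 59 were between -0.2 and 0.2. In whole cultures, fewer cells of a type and less RNA per cell cannot be told apart.

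The 7 members on chromosomes 8 and 11 were all lower in Hira-null cells. They were Ndufb7, Ndufa13 and Cox4i1 on chromosome 8, and Uqcrq, Uqcr10, Atp5g1 and Atp5h on chromosome 11, and so belonged to 4 of the 5 complexes. Their differences ran from -0.63 to -0.24 with a median of -0.40. Of the 7, 5 had no overlap between the lines (71.4%), against 34% of all genes on these chromosomes on the lower side. The 74 members on other chromosomes had a median of -0.02, with 40 lower and 34 higher. Of these, 6 had no overlap on the lower side (8.11%), against 5.49% of all genes on other chromosomes. On the higher side there were 3 (4.05%), against 8.85%. The median of these 74 changed sign with the arrays used, from -0.0725 without WT replicate 1 to 0.0433 without WT replicate 2, and was also above 0 without WT replicate 3 and without Hira-null replicate 3. The 2 medians differed by -0.38. Of the 10 lowest members, 5 lay on chromosomes 8 and 11. These chromosomes were singled out with earlier results of these data known, so the contrast is a description.

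**Figure D1:**
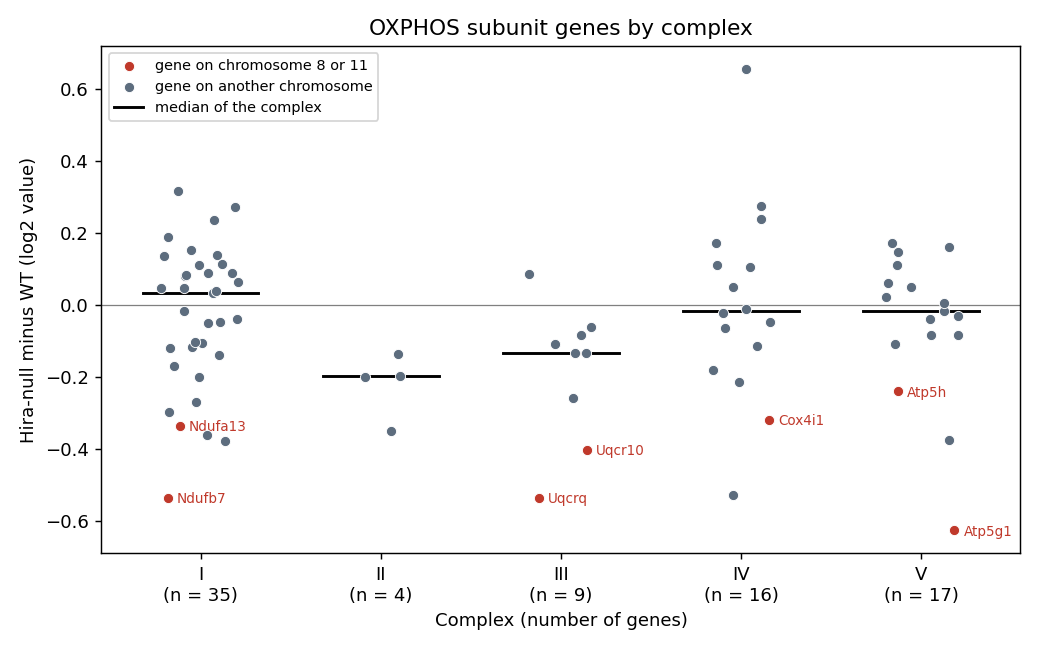
Log2 difference (Hira-null minus WT, y axis) of each of the 81 subunit genes, grouped by complex on the x axis. Each point is 1 gene, red for chromosomes 8 and 11 and grey for the others, and the bar is the median of the complex. The 7 red points lie between -0.63 and -0.24, and 59 of the 74 grey points lie between -0.2 and 0.2.

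In complex I, Ndufb7, an accessory subunit facing the intermembrane space, read 7.98, 7.84 and 8.0 in Hira-null arrays, against 8.35, 8.54 and 8.54 in WT arrays. Every Hira-null array lay below every WT array. The means were 7.94 ± 0.09 and 8.48 ± 0.11 (SD, n = 3 each), a difference of -0.54 (SE 0.13) or 1.45-fold, with a limma adjusted p of 0.25. Ndufa13, an accessory subunit also known as GRIM-19, read 6.81, 6.64 and 7.19 in Hira-null arrays, against 7.22, 7.19 and 7.24 in WT arrays. The lines touched at 7.19, where Hira-null replicate 3 met WT replicate 2, and the difference was -0.34 (SE 0.17, adjusted p 0.557), and -0.22 without Hira-null replicate 2.

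In complex III, Uqcrq and Uqcr10 are small accessory subunits of the cytochrome bc1 complex. Uqcrq read 8.12, 8.05 and 7.82 in Hira-null arrays, against 8.22, 8.75 and 8.63 in WT arrays, a difference of -0.54 (SE 0.18, adjusted p 0.387). Uqcr10 read 8.24, 8.04 and 8.10 in Hira-null arrays, against 8.28, 8.78 and 8.53 in WT arrays, a difference of -0.40 (SE 0.16, adjusted p 0.464). For neither gene did the lines overlap, and in both WT replicate 1 was the WT array nearest the clone. In complex IV, Cox4i1, the isoform of subunit 4 used in most tissues, read 9.54, 9.40 and 9.64 in Hira-null arrays, against 9.72, 9.87 and 9.95 in WT arrays. It too showed no overlap, with a difference of -0.32 (SE 0.13, adjusted p 0.483).

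In complex V, Atp5g1 is 1 of the genes for subunit c, which forms the rotating ring in the membrane. It read 8.82, 8.76 and 7.91 in Hira-null arrays, against 8.64, 9.29 and 9.44 in WT arrays. The lines overlapped, with WT replicate 1 below Hira-null replicates 1 and 2. The difference was -0.63 (SE 0.31, adjusted p 0.561), and -0.33 without Hira-null replicate 3. Atp5h, subunit d of the stalk that holds the catalytic head still, read 10.01, 10 and 10.03 in Hira-null arrays, against 10.10, 10.31 and 10.35 in WT arrays. Its lines did not overlap, and the difference was -0.24 (SE 0.12, adjusted p 0.588).

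**Figure D2:**
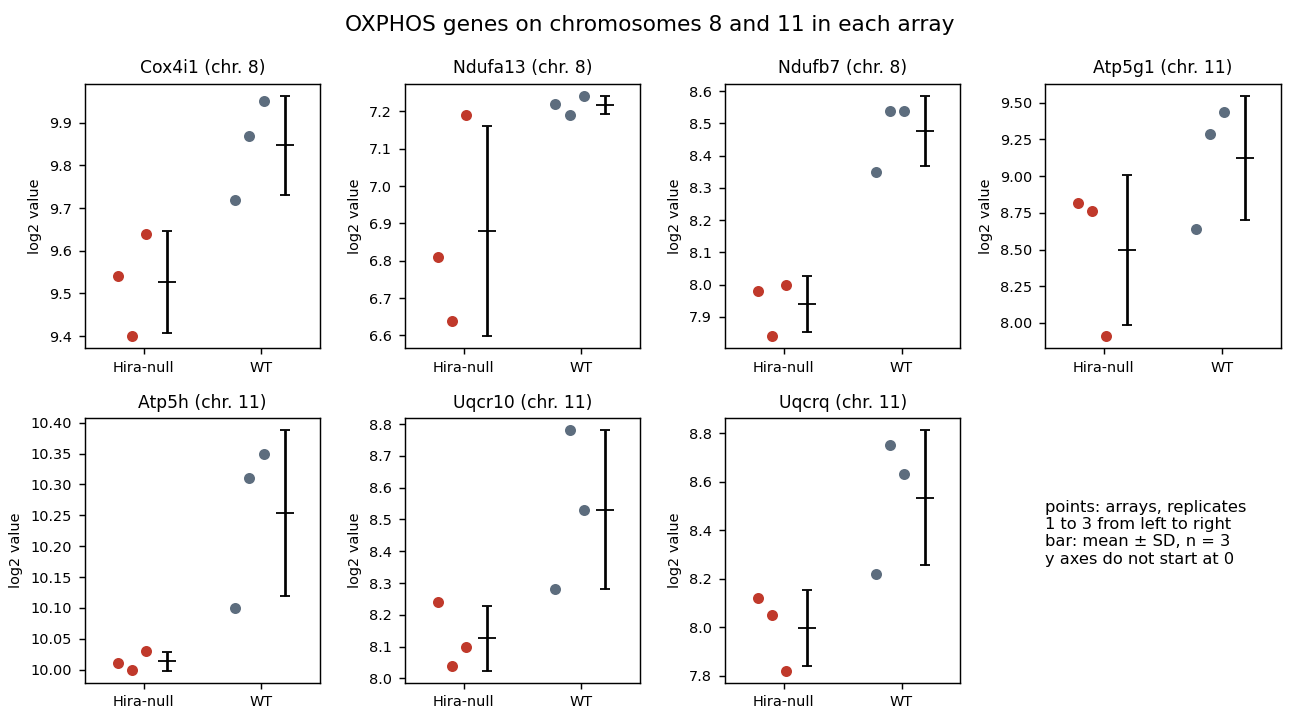
Log2 values of the 7 subunit genes on chromosomes 8 and 11 in each array, with Hira-null arrays in red left of WT arrays in grey. Points are replicates 1 to 3 from left to right, bars are the mean ± SD (n = 3), and the y axes do not start at 0. Hira-null and WT points are separate for 5 genes, touch for Ndufa13 and overlap for Atp5g1.

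The lower values were shared by other genes of the same chromosomes. All 2160 measured genes on chromosomes 8 and 11, members included, had a median difference of -0.25, and 82.1% of them were lower in Hira-null cells. The 3 members on chromosome 8 had a median of -0.34, against -0.27 over the 809 genes there, and the 4 members on chromosome 11 one of -0.47, against -0.24 over the 1351 genes there. Among the 769 other genes of both chromosomes whose mean level lay in the same range as that of the 7 members (7.05 to 10.13), the median was -0.41, 93.2% were lower, and 53.7% had no overlap on the lower side. The median of the 7 members, -0.40, thus lay beside that of their neighbours of like signal. The 12991 genes on other chromosomes had a median of 0.02, and 5.49% of them had no overlap on the lower side.

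**Figure D3:**
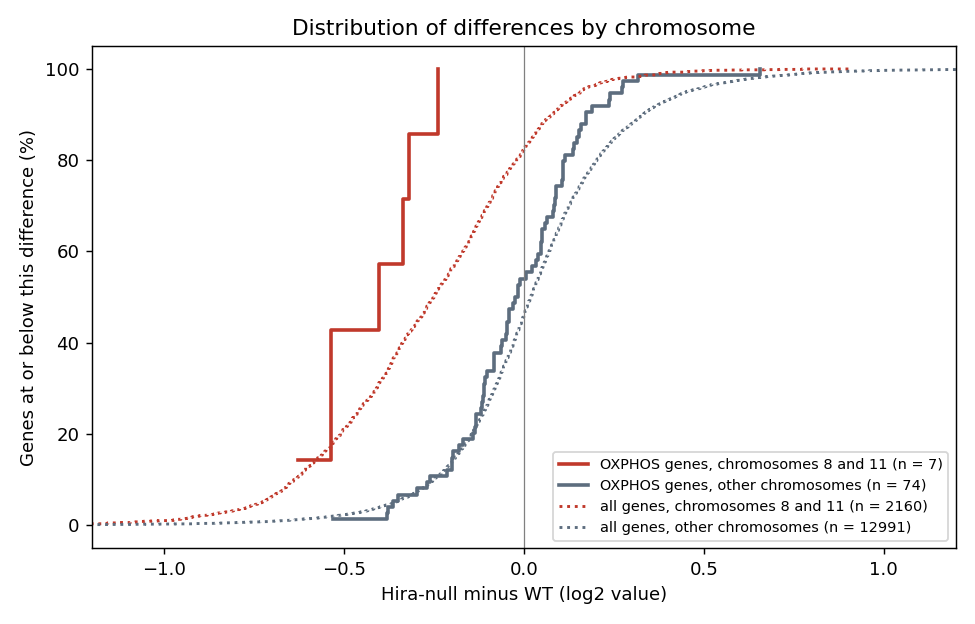
Cumulative share of genes (y axis, %) at or below a given log2 difference, Hira-null minus WT (x axis). Solid lines are the subunit genes on chromosomes 8 and 11 (red, n = 7) and on other chromosomes (grey, n = 74), and dotted lines are all measured genes of those chromosomes (n = 2160 and 12991). Both red curves lie left of both grey ones over the middle of the range, with medians of -0.40 and -0.25 for the red and -0.02 and 0.02 for the grey.

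Probe sets that named the same member gave nearly the same difference. In the 16 genes with several kept probe sets, the spread of their differences within a gene was 0.0033 to 0.08 on the log2 scale. The 3 probe sets of Atp5h gave -0.26 to -0.24, although the identifiers of 2 of them, 10359297 and 10542520, lie among those of genes on chromosomes 1 and 6. In the other direction, 4 probe sets named for genes elsewhere have identifiers among those of chromosomes 8 or 11. These were 10380821 of Atp5l at 0.17, 10386005 of Atp5pb at 0.11, 10386171 of Ndufs3 at -0.10 and 10572813 of Atp5md at 0.10. In all, 21 probe sets of 14 members had such identifiers, and 9 members were represented by one. A probe set counted when at least 5 of its 6 nearest named probe sets lay on 1 other chromosome, a rule set after the values were seen. Processed copies of these genes are common in mammalian genomes, and the signal of a copy and that of its parent gene were not separated here.

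Within complex I, 17 genes were lower and 18 higher, with a median of 0.03 and no shared direction. That median was below 0 without WT replicate 1 (-0.0200) and without Hira-null replicate 1 (-0.0450). Without Ndufb7 and Ndufa13 the median over 33 genes was 0.04. Ndufs1, the large iron-sulphur subunit of the electron input arm, read 9.58, 9.5 and 9.45 in Hira-null arrays, against 8.95, 9.30 and 9.33 in WT arrays. It was higher without overlap, by 0.32 (SE 0.15, adjusted p 0.525), and by 0.195 without WT replicate 1. Ndufv1, which binds NADH next to it, read 8.97, 8.99 and 8.53 in Hira-null arrays and 8.88, 9.02 and 9.19 in WT arrays, and so overlapped, with a difference of -0.20, and -0.05 without Hira-null replicate 3.

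Among accessory subunits of complex I, Ndufa10 was higher and Ndufc2 lower without overlap. Ndufa10 read 9.44, 9.45 and 9.64 in Hira-null arrays, against 9.19, 9.21 and 9.31 in WT arrays, a difference of 0.27 (SE 0.12, adjusted p 0.512). Ndufc2 read 9.39, 9.42 and 9.24 in Hira-null arrays, against 9.69, 9.60 and 9.65 in WT arrays, a difference of -0.30 (SE 0.12, adjusted p 0.465). Ndufs7 at -0.14 and Ndufa3 at -0.12 were also lower without overlap, which with Ndufb7 and Ndufc2 makes 4 lower genes, beside 2 higher ones, among 35 (11.4% and 5.71%), near the 9.55% and 7.8% of all genes. Ndufa4, counted here by its symbol although now assigned to complex IV, stood at 0.24 with overlap. Its paralogue Ndufa4l2, known as a hypoxia-induced gene, scattered most, at 5.81, 6.89 and 5.23 in Hira-null arrays and 7.10, 5.06 and 6.91 in WT arrays, with a difference of -0.38 that is smaller than its SE of 0.62.

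All 4 genes of complex II, which lie on 4 chromosomes other than 8 and 11, were lower, with differences of -0.35 to -0.14 and a median of -0.20. Sdhc, a membrane anchor, read 9.08, 9.11 and 8.76 in Hira-null arrays, against 9.39, 9.25 and 9.36 in WT arrays, a difference of -0.35 (SE 0.14, adjusted p 0.475). Sdhb, the iron-sulphur subunit, read 8.01, 7.96 and 7.79 in Hira-null arrays, against 8.02, 8.16 and 8.18 in WT arrays, a difference of -0.20 (SE 0.13, adjusted p 0.67). Neither gene overlapped between the lines, although for Sdhb the gap between the nearest arrays was the last decimal. Sdhd, the other anchor, read 8.97, 8.89 and 8.41 in Hira-null arrays and 8.92, 9.07 and 8.87 in WT arrays. Sdha, the flavoprotein that oxidises succinate, read 9.23, 9.22 and 9.29 in Hira-null arrays and 9.55, 9.26 and 9.34 in WT arrays. Both overlapped, at -0.20 and -0.14. Sdhd stood at -0.02 without Hira-null replicate 3, and Sdha at -0.05 without WT replicate 1. The shift of the complex was -0.04, -0.05 and -0.31 in Hira-null replicates 1 to 3 as the median deviation from the gene mean, against 0.15, 0.12 and 0.09 in WT replicates 1 to 3, so Hira-null replicate 3 stood lowest. With 4 genes and no member past the adjusted threshold, this is a description.

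In complex III, 8 of 9 genes were lower, with a median of -0.13, and without Uqcrq and Uqcr10 the median over 7 genes was -0.11. The median was -0.33 without Hira-null replicate 1, -0.32 without WT replicate 1, -0.26 without Hira-null replicate 2 and -0.065 without WT replicate 3, so single arrays moved it by over 1.5 times. Uqcrfs1, the Rieske iron-sulphur protein, read 7.22, 6.94 and 6.65 in Hira-null arrays and 7.08, 7.32 and 7.19 in WT arrays. Cyc1, cytochrome c1, read 9.66, 9.65 and 9.72 in Hira-null arrays and 9.76, 9.71 and 9.89 in WT arrays. Both overlapped, with differences of -0.26 and -0.11 (SE 0.17 and 0.12). Uqcrfs1 stood at -0.12 without Hira-null replicate 3, and Cyc1 at -0.06 without WT replicate 3. The core protein Uqcrc1 stood at -0.13 and Uqcrb at 0.09, the sole higher value of the complex.

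In complex IV, 9 genes were lower and 7 higher, and the median of -0.02 changed sign with the arrays used, from -0.05 without WT replicate 1 to 0.04 without WT replicate 2. Subunit isoforms that are restricted to tissues in the adult gave its extremes. Cox6b2, the testis isoform of subunit 6b, read 7.67, 7.48 and 8.35 in Hira-null arrays, against 7.60, 6.93 and 7.0 in WT arrays. The lines overlapped, and the difference of 0.66 (SE 0.28, adjusted p 0.495) was 0.40 without Hira-null replicate 3. Cox7a1, the heart and skeletal muscle isoform of subunit 7a, read 7.29, 7.32 and 7.26 in Hira-null arrays, against 8.41, 7.41 and 7.64 in WT arrays. Its lines did not overlap, and the difference of -0.53 (SE 0.25, adjusted p 0.545) was -0.235 without WT replicate 1. The 6 striated muscle markers measured of 6 summed to 28.3 to 30 in Hira-null arrays and 30.1 to 30.7 in WT arrays, with none at 0 and Myh6 lowest at 3.92. WT replicate 1 had the highest sum, but the markers did not rise there together. Among WT arrays Actc1 (7.64, against 6.93 and 6.59) and Tnnt2 were highest in replicate 1, and Myh6, Ckm and Myod1 were lowest there. All markers but Actc1 read 3.92 to 5.21, not far above the filter at 3.78, so the sum does not show muscle cells. The part of other cells in the Cox7a1 value was not tested.

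The counterpart isoforms had smaller differences. Cox7a2 stood at -0.06, Cox7a2l at 0.05, Cox6b1 at 0.17 and Cox6a1 at 0.28, and the muscle isoform Cox6a2 at 0.11. Cox8a, the isoform used in most tissues, stood at 0.11, against -0.11 for the muscle isoform Cox8b and -0.21 for the testis isoform Cox8c. Cox4i2, the lung isoform of subunit 4, stood at -0.18, and all of these overlapped between the lines. Cox8b read 3.79 to 4.40, close to the filter at 3.78, and Cox8c, Cox6a2 and Cox4i2 read 4.90 to 5.67. The median level of the members was 8.76, so small differences in these 4 genes say little about their expression. Without WT replicate 1, Cox6a1 stood at 0.14 and Cox6b1 at 0.05. Cox7a2 (SE 0.30) ran from -0.25 without Hira-null replicate 1 to 0.275 without Hira-null replicate 3. Cox5a, a subunit on the matrix side, stood at -0.05. Cox6c read 10.14, 10.02 and 9.85 in Hira-null arrays, against 9.74, 9.71 and 9.84 in WT arrays. It was the higher member without overlap in this complex, by 0.24 (SE 0.13, adjusted p 0.606).

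In complex V, 9 genes were lower and 8 higher, with a median of -0.02, and 0.01 over the 15 genes on other chromosomes. Both medians changed sign with the arrays used, from -0.0850 and -0.0633 without WT replicate 1 to 0.0683 and 0.0833 without Hira-null replicate 3. Subunits alpha and beta form the head, where ATP is made. Atp5a1, subunit alpha, read 11.28, 11.29 and 11.28 in Hira-null arrays, against 11.32, 11.26 and 11.39 in WT arrays, a difference of -0.04. Atp5b, subunit beta, read 11.80, 11.84 and 11.96 in Hira-null arrays, against 12.07, 11.87 and 11.99 in WT arrays, a difference of -0.11, and -0.06 without WT replicate 1. Both overlapped between the lines. The 3 genes for subunit c gave unlike values, with Atp5g1 at -0.63, Atp5g3 at -0.38 and Atp5g2 at 0.05. Atp5g3 read 9.98, 10.03 and 8.99 in Hira-null arrays and 9.78, 10.23 and 10.12 in WT arrays, and its difference was -0.04 without Hira-null replicate 3. Atp5e, the epsilon subunit, stood at 0.16 (0.03 without WT replicate 1) and Atp5pb, subunit b of the stalk, at 0.11, and in neither were the lines separate.

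**Figure D4:**
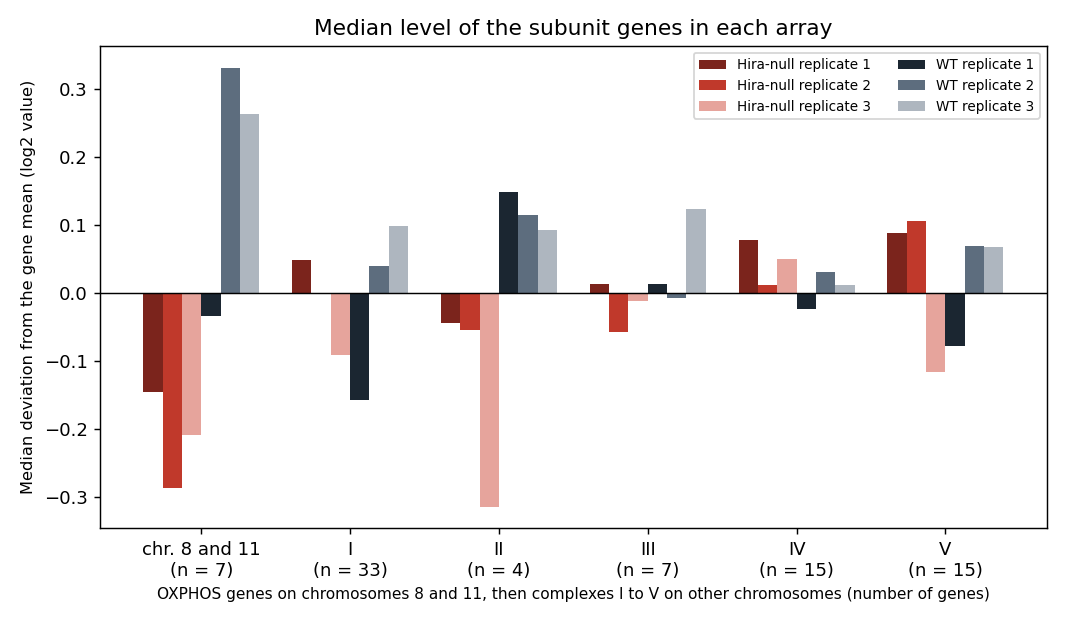
Median deviation of the subunit genes from their gene means (log2, y axis) in each array, for the 7 genes on chromosomes 8 and 11 and then for complexes I to V on other chromosomes. Hira-null replicates are the red bars left of the dark to grey WT bars, and each bar is the median over the genes of 1 array. On chromosomes 8 and 11 the Hira-null arrays stood at -0.145, -0.287 and -0.208, against -0.033, 0.332 and 0.263 in the WT arrays, and in complex II Hira-null replicate 3 stood lowest at -0.314.

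In many subunit genes 1 array of each line lay low, in both lines at once. Hira-null replicate 3 was the lowest Hira-null array in 41 of the 81 genes (50.6%), against 37.7% of all genes. WT replicate 1 was the lowest WT array in 52 (64.2%), against 35.2% of all genes. Both arrays lay over 0.3 below the mean of the other arrays of their line in 17 of the 81 genes (21%), against 7.32% of all genes, with the limit chosen after the values were seen. Complex V gave 7 of its 17 genes, complex I 6 of 35, complexes III and IV 2 each, and complex II none of 4. Across the 81 genes, which are not independent and share all 6 arrays, the deviations of the 2 arrays correlated with a Pearson r of 0.47 and a Spearman rho of 0.57. Across all genes these were 0.57 and 0.5.

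The small subunits named here for this pattern were chosen after their values were seen. Uqcrh, the hinge protein of complex III, read 9.44, 9.34 and 8.04 in Hira-null arrays and 8.5, 9.49 and 9.08 in WT arrays. Uqcr11 read 7.93, 7.80 and 6.80 in Hira-null arrays and 7.11, 8.0 and 7.82 in WT arrays. Atp5l, subunit g of complex V, read 8.82, 8.68 and 8.09 in Hira-null arrays and 7.68, 8.79 and 8.60 in WT arrays. In each, Hira-null replicate 3 and WT replicate 1 were the low arrays and the lines overlapped. Over the other 4 arrays the 17 genes had a median difference of 0.055, from -0.575 to 0.22. The 7 members on chromosomes 8 and 11 then stood at -0.515 in the median, from -0.63 to -0.325. The 7 fibroblast markers measured of 8 summed to 41.2 to 44.8 in Hira-null arrays and 43.6 to 47.3 in WT arrays, and the 7 endoderm markers measured of 8 to 38.0 to 40.0 and 41.0 to 44.2. None was at 0, both sums were highest in Hira-null replicate 3 among Hira-null arrays and in WT replicate 1 among WT arrays, and their part in the low subunit values was not tested.

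**Figure D5:**
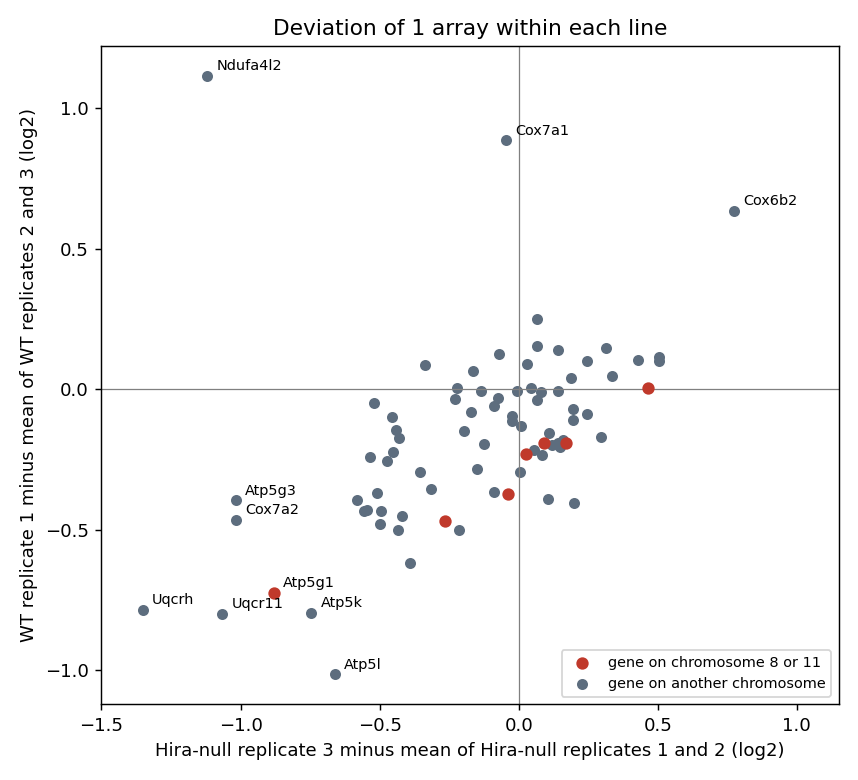
Deviation of Hira-null replicate 3 from the mean of Hira-null replicates 1 and 2 (x axis, log2) against that of WT replicate 1 from the mean of WT replicates 2 and 3 (y axis, log2). Each point is 1 of the 81 subunit genes, red on chromosomes 8 and 11 and grey elsewhere. Points at the lower left, such as Uqcrh at -1.35 and -0.785, are genes low in both arrays, and 40 of the 81 genes lie below 0 on both axes.

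Genes around the complexes were read from lists of the pathway, and no listed gene passed the adjusted threshold. At an unadjusted p under 0.05 there were 7 lower and 0 higher assembly factors, 3 and 0 carriers and partners, 2 and 1 genes of the tricarboxylic acid cycle, and 12 and 0 genes of the mitochondrial ribosome, where all genes gave 6.29% lower and 4.17% higher. Of the lower ones, 4 assembly factors, 3 carriers and 9 ribosome genes lay on chromosomes 8 and 11. That left 3 of 33 (9.09%), 0 of 8 and 3 of 64 (4.69%) on other chromosomes. The share over all genes of other chromosomes was 2.73%. Of 46 assembly factors of the complexes, 40 were measured, 27 lower and 13 higher, with a median of -0.12. The 7 on chromosomes 8 and 11 were all lower, with a median of -0.41, and the 33 elsewhere had a median of -0.03. Ndufaf7, a methyltransferase needed for complex I assembly, lies on chromosome 17 and read 6.73, 6.77 and 6.74 in Hira-null arrays, against 7.60, 7.37 and 7.49 in WT arrays. It was lower without overlap, at -0.74 (SE 0.12, adjusted p 0.22). Sco1, a copper chaperone of complex IV on chromosome 11, stood at -0.69 and Bcs1l, which inserts the Rieske protein into complex III, at -0.68 (-0.40 without Hira-null replicate 3), both without overlap.

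Of 13 carriers and partner proteins, 12 were measured, 10 lower and 2 higher, with a median of -0.12. The 4 on chromosomes 8 and 11 had a median of -0.57 and the 8 elsewhere one of -0.06. Slc25a4, the ADP/ATP carrier that exports ATP from mitochondria, lies on chromosome 8 and read 10.30, 10.28 and 10.01 in Hira-null arrays, against 11.22, 10.77 and 10.86 in WT arrays. It was lower without overlap, at -0.75 (SE 0.17, adjusted p 0.233). The outer membrane channels Vdac3 on chromosome 8 and Vdac1 on chromosome 11 stood at -0.53 and -0.38, also without overlap.

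Of 17 genes of the tricarboxylic acid cycle, 16 were measured, 8 lower and 8 higher, with a median of -0.01. Fh1, fumarase, the enzyme after complex II in the cycle, read 9.08, 9.03 and 8.80 in Hira-null arrays, against 9.65, 9.39 and 9.46 in WT arrays, a difference of -0.53 (SE 0.14, adjusted p 0.3). Ogdh, of the oxoglutarate dehydrogenase complex and on chromosome 11, stood at -0.51, and Pdha1, of pyruvate dehydrogenase, at 0.33. None of these overlapped. Fh1 and the 4 genes of complex II lie on chromosomes other than 8 and 11, with Fh1 and Sdhc both on chromosome 1.

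The mitochondrial ribosome makes the subunits encoded in mitochondria, and all 77 listed protein genes were measured, 52 lower and 25 higher, with a median of -0.10. The 13 on chromosomes 8 and 11 were all lower, with a median of -0.45, and the 64 elsewhere had a median of -0.04. Mrpl35 on chromosome 6 stood at -0.81, Mrpl22 and Mrpl10 on chromosome 11 at -0.67 and -0.58. Both Hira-null replicate 3 and WT replicate 1 lay below the mean of the other arrays of their line in 59 of the 77 (76.6%), as in 49.4% of the subunit genes and 31.6% of all genes. Of 15 regulators of mitochondrial gene expression and number, 14 were measured, 7 lower and 7 higher, with Polg2 on chromosome 11 at -0.37, Polg at -0.34 and Pprc1 at -0.25. The measured genes of the mitochondrial genome were COX2 at 0.06 and ND3 at 0.23, subunits of complexes IV and I. The identifier of the COX2 probe set, 10353630, lies between those of Sdhaf4 and Coa5 on chromosome 1, and a nuclear copy was not separated here.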

How the data were processed

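The authors deposited log2 expression values for 35557 probe sets on 6 arrays, made with GCRMA per the submitters' processing notes. Their range set the log2 scale. For the genome build and annotation used, the sources used here give nothing. GCRMA corrects background and equalises array distributions, which hides a change common to most genes. Precision is limited by the number of arrays, and the median SE of a log2 difference was 0.17.

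Of the probe sets, 21789 had 1 symbol in the platform table, 1621 had several and 12147 were unnamed here. Symbols and chromosomes came from a RefSeq gene table of GRCm38.p6, which matched 21698. Probe sets were kept if 3 or more of 6 arrays exceeded the 30th percentile, 3.78. Hira-null minus WT was fitted over all probe sets kept with limma 3.58.1 (lmFit, eBayes, two-sided, Benjamini-Hochberg, threshold 0.05) in R 4.3.3 and tested on simulated data. Members, lists and chromosomes were chosen with earlier results of these data known, and lists were described by counts and medians, with no test.

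Named were all members on chromosomes 8 and 11, of each complex the 3 others with the smallest unadjusted p, core subunits, isoform families, Hira, and up to 3 genes of each pathway list. Genes outside this rule that the text gives are those without overlap, those said to be chosen later, Uqcrb, Atp5g2, Cox7b2 and cell type markers. Same-numbered arrays did not deviate together (correlations -0.34, 0.17 and -0.1), so numbers were not used as pairs. Alternatives were the filter, the normalization and centring, the variance model, arrayWeights, averaging probe sets, arrays left out, and a block for the replicate number.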

Additional observations from a re-analysis of the deposited data

How the results depend on the processing

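Of 253 recomputed values of summaries, 225 moved by less than 1 SD between replicates (counts by less than 1.5 times). The change of variance model and the block for replicate number cannot alter a log2 difference here, so those medians were unchanged by design. For single genes, leaving out 1 of 3 arrays cannot move a difference by a full replicate SD, so the limit is lenient. Among 224 recomputed medians 37 changed sign, all of medians of size 0.04 or less. Leaving out 1 array moved 29 of the 57 named genes by over 1.5 times. No subunit probe set was called under any alternative, and the smallest adjusted p of a named member was 0.131. The 7 members on chromosomes 8 and 11 were lower in all 105 recomputed values, from -0.87 to -0.19. Some of these could not have come out otherwise. The filter, the variance model and the block leave a gene's difference as it is. For the 5 members without overlap, leaving out arrays cannot change the sign. Of 57 named genes, 9 (Atp5a1, Atp5e, Cox6a2, Cox7a2, Cox7a2l, Cox7b, Cox8a, Cox8b and Ndufa4l2) changed sign in 16 of 854 values. The whole-table count of 1 call was 2 with the stricter filter (4.99), 2 with median centring, 5 with arrayWeights and 0 with both Hira-null replicate 3 and WT replicate 1 left out, and leaving out 1 array gave 0 to 41. With the replicate number as a block the count was 0 and no subunit was called. Medians cannot change with this block, since each replicate number occurs once in each line. With Hira-null replicate 3 and WT replicate 1 left out, the gap of -0.38 between members on chromosomes 8 and 11 and the others was -0.50, and complex III off these chromosomes stood at -0.045 in place of -0.11. Leaving out 1 array gave -0.46 to -0.32 for that gap, -0.33 to -0.065 for complex III and -0.1233 to -0.0583 for complex III off chromosomes 8 and 11. Complex IV, at -0.02, stood at -0.0667 with arrays centred on genes off chromosomes 8 and 11, at 0.0318 with arrayWeights, and at -0.0475 to 0.0367 with 1 array left out. Without Cox4i1 its median of -0.01 stood at -0.06 with that centring, at 0.0418 with arrayWeights, and at 0.0017 to 0.0517 with 1 array left out. With arrayWeights complex III off chromosomes 8 and 11 stood at -0.0490. That centring lowers every difference by 0.05, and the cause of the other changes was not tested. With 3 arrays a line, differences near the SE of 0.17 were not detectable for single genes.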
